A study of Mus musculus with 2 samples.

Results

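The IFITM genes and a small set of interferon response genes were compared between wild type testes and testes without UBR2, which marks proteins for breakdown with ubiquitin according to their N-terminal residue. The set was given by name as 9 genes (Ifitm1, Ifitm2, Ifitm3, Bst2, Ifih1, Irf1, Irf7, Stat2 and Isg15), and a gene counted as read when a probe set of the array carried its symbol alone. That left 8 genes with 9 probe sets, out of 12393 genes and 22626 probe sets. Isg15, a ubiquitin-like modifier, was not read, since the 1 probe set listed under its symbol also carries a second gene's symbol. The genes were chosen with their ratios on these arrays in view, so their values are given as a description, with no test.

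The mice were 17 days old and of a strain given as 129SV and C57BL mixed. Their testes were measured with 1 Affymetrix array for wild type and 1 for UBR2-/- (n = 1 each), and 2 testes of different littermates are named for each genotype. How the UBR2-/- allele was made, and whether the RNA of both testes was pooled, is not known from the labels. With 1 array per genotype there is no replicate check, and each difference describes these arrays only. Signals are linear values on the deposited scale. Ratios are UBR2-/- over wild type, and a signal under the 40th percentile of its array (24.4 for wild type, 24.7 for UBR2-/-) was raised to that floor before a ratio was taken. A gene is called compared when its mean signal reached the mean floor, which held for 8091 genes, and their median log2 ratio was 0.07. The spread of 1 probe set's log2 ratio, taken from probe sets that read the same gene, had an SD of 0.26 in the dim, 0.20 in the intermediate and 0.14 in the bright class of signals, and leaves out differences between arrays or animals. As a check of the labels, Ubr2 itself had signals of 57.2 and 14.3, which makes it at least 2.32-fold lower in UBR2-/-. Where its 1 probe set lies relative to the deleted part is not known here, so this check is limited. Of the early meiosis markers, Sycp3 of the synaptonemal complex had signals of 2904.1 and 2954.7, while Spo11 was 2.42-fold lower at 555.7 and 229.8. Markers of pachytene and later spermatocytes were lower in UBR2-/-, with Pgk2 at 107.4 and 4.1 and Adam3 at 267 and 13.7. The spike-in controls of bacteria and phage stood at a median log2 ratio of 0.35, and setting them equal lowers every ratio by 0.35.

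IFITM proteins are small membrane proteins that hinder the entry of enveloped viruses into cells, and Ifitm1 and Ifitm3 are also known as markers of primordial germ cells, under the name fragilis genes. Interferons bind receptors on the cell surface, JAK kinases then phosphorylate STAT proteins, and a complex that holds STAT2 and IRF9 binds a sequence called the interferon-stimulated response element (ISRE) near the genes it turns on. Pairs of STAT proteins bind another, palindromic element. In cells without infection, double-stranded RNA from the genome's own repeats can be sensed by MDA5, the product of Ifih1.

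The 3 Ifitm genes lie beside each other on chromosome 7. The stretches before their start sites are shown because the ratio of Ifitm1 stood apart from those of Ifitm2 and Ifitm3. Whether these sequences bear on the ratios was not tested. Each line gives 100 bases before the start site, 5′ to 3′ on the gene's own strand, from RefSeq on GRCm38.p6. Capitals mark the ISRE core, GAAA repeated after any 2 bases, which was searched on both strands. The stretches are chr7:140967976-140968075 on the plus strand for Ifitm1, chr7:140955962-140956061 on the minus strand for Ifitm2 and chr7:141010745-141010844 on the minus strand for Ifitm3.
Ifitm1: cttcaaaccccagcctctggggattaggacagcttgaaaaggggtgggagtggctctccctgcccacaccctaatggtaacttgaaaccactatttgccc
Ifitm2: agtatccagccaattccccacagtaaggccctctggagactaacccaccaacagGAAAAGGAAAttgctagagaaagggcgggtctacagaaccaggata
Ifitm3: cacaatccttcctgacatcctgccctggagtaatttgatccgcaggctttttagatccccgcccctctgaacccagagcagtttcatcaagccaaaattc
The core was found once before the start of Ifitm2, from 46 to 37 bases before it. In Ifitm3 it was found after the start, at transcribed bases 3 to 12 and 20 to 29, shown here with the bases between them (chr7:141010716-141010742).
Ifitm3 after the start: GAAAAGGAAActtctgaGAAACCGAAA
In the whole Ifitm1 window, which runs from 250 bases before to 50 bases after the start, these letters did not occur.

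Ifitm1 stood farthest from wild type in the set. Its signal was 63.2 in wild type and 155.4 in UBR2-/-, which is 2.46-fold higher (log2 ratio 1.30). The difference was 6.40 times the SD of an intermediate probe set. Among the 7798 genes above the floor on both arrays, Ifitm1 held place 7 from the highest ratio. The genes next to it in that order were Tnfrsf12a, a receptor of the TNF family (2.61-fold higher), and the Y-linked transcription factor gene Zfy2 (2.62-fold) above it, and the X-linked Tsga8 (2.38-fold) and Nxph3 (2.36-fold) below it. The distance in log2 ratio to these 4 genes, over 2 arrays, was between 0.050 and 0.091. These 4 were dimmer than Ifitm1, with wild type signals from 31.7 to 38.2, nearer the floor of 24.4. Tnfrsf12a has 2 probe sets and is given by the brighter.

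Its relatives were closer to wild type. Ifitm2 had signals of 185.2 and 256.4, or 1.38-fold higher (log2 ratio 0.47, 2.31 times the SD of its brightness class). Ifitm3, the member best known for blocking influenza virus, had signals of 237.2 and 274.5, or 1.16-fold higher (0.21, 1.46 times the SD of a bright probe set). With spike-in scaling the ratio of Ifitm3 turned to -0.14. The log2 ratio of Ifitm1 exceeded that of Ifitm2 by 0.83 and that of Ifitm3 by 1.09, which is 2.89 and 4.37 times the SD of such a difference between probe sets. Ifitm2 and Ifitm3 differed by 0.26, or 1.04 times that SD. The genes are close relatives, and whether a probe set binds RNA of more than 1 of them was not tested. Of 9 further genes fixed as family members or relatives, 3 were read by a probe set of their own, Ifitm6, Ifitm10 and Prrt1, and all 3 lay below the floor on both arrays.

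**Figure D1:**
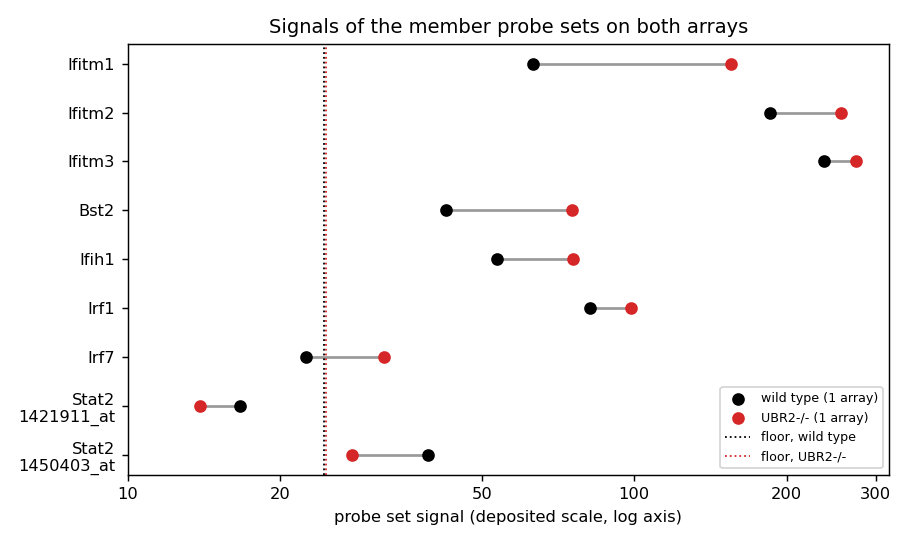
Signal of each of the 9 probe sets (log axis, deposited scale) on the wild type array (black) and the UBR2-/- array (red), 1 array each; dotted lines mark the floors of 24.4 and 24.7. The widest gap is that of Ifitm1, from 63.2 to 155.4, and both probe sets of Stat2 have the lower signal on the UBR2-/- array, 1 of them below the floors.

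Of the other effector and sensor genes, Bst2 differed most. Bst2 encodes tetherin, which holds budding virus particles on the cell surface, and its signals were 42.6 and 75.5, or 1.77-fold higher (log2 ratio 0.83, 3.12 times the SD of a dim probe set). Ifih1, the gene of the RNA sensor MDA5, had signals of 53.7 and 75.9, or 1.41-fold higher (0.50, 1.89 times that SD). Both were dim, and each was read by 1 probe set. With spike-in scaling Bst2 had a log2 ratio of 0.47, which is less than 1.5-fold. At the floor of the 60th percentile neither was bright enough to be compared.

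The transcription factor genes went both ways. Irf1, an early regulator of interferon and interferon gamma responses, had signals of 81.8 and 98.4, or 1.20-fold higher (log2 ratio 0.27). This was 1.31 times the SD of an intermediate probe set, and with spike-in scaling Irf1 turned to -0.09. Irf7, which amplifies interferon alpha production, had 22.5 in wild type, under that array's floor, and 32.1 in UBR2-/-, which makes it at least 1.32-fold higher. Taken from the floor, its log2 ratio was 1.49 times the SD of a dim probe set. Stat2, the STAT protein particular to type I and type III interferon signalling, was the 1 gene on the other side. Its brighter probe set had signals of 39.1 and 27.7, or 1.41-fold lower (-0.50, 1.88 times the SD of a dim probe set). The second Stat2 probe set, at 16.7 and 13.9, was below the floor on both arrays and gives no fold.

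Over the set, 2 of 8 genes (Ifitm1 and Bst2) were at least 1.5-fold higher, 0 were at least 1.5-fold lower and 6 lay between. Under spike-in scaling Bst2 was no longer past 1.5-fold and Stat2 was, at -0.85, which gives 1 higher and 1 lower. On the deposited scale, of all compared genes 4.25% were at least 1.5-fold higher and 7.71% at least 1.5-fold lower. At 2-fold, Ifitm1 alone was higher and 0 were lower, against 0.346% and 3.52% of all compared genes. Ifitm1 was not past 2-fold with spike-in scaling (0.95). With the floor at the 60th percentile its wild type signal lay under the floor. Its ratio of 0.81 there is a lower bound and cannot tell whether it passed 2-fold. At a threshold of 0.32 on the log2 scale 5 of 8 were higher and 1, Stat2, was lower, against 20.4% and 15.5%. The median log2 ratio of the 8 genes was 0.43, against 0.07 for all compared genes, and 7 of 8 lay above 0, as did 58.9% of all compared genes. Since these ratios chose the genes, nothing is read from the counts. Dim genes varied more in general: 8.59% of dim, 3.68% of intermediate and 1.52% of bright compared genes were at least 1.5-fold higher, and 5 of the 9 probe sets were dim.

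**Figure D2:**
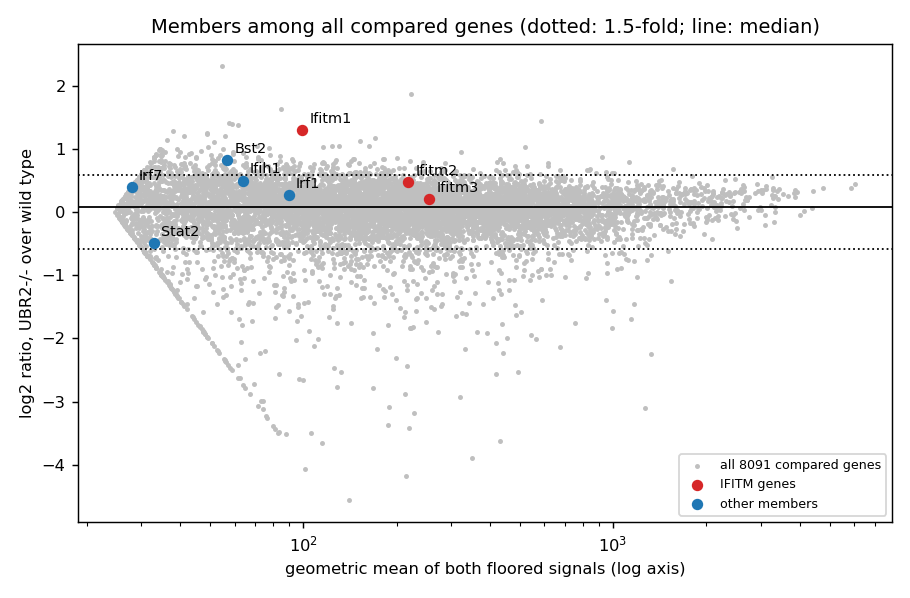
Log2 ratio of UBR2-/- over wild type against the geometric mean of both floored signals (log axis) for all 8091 compared genes (grey), the Ifitm genes (red) and the other genes of the set (blue); the line is the median of 0.07 and dotted lines mark 1.5-fold. Ifitm1 and Bst2 lie above the upper dotted line, and the diagonal edges at the left are genes held at the floor on 1 array.

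The rest of the interferon pathway was taken from lists of ligands, receptors, sensors, regulators and targets. Of 206 listed genes 160 were on the array under a symbol of their own, 84 were compared and 76 were too dim. Of all 12393 genes read by the array, 8091 were compared and the rest were too dim. Of the 84, 5 were at least 1.5-fold higher, 3 were at least 1.5-fold lower and 76 lay between, or 5.95% and 3.57% against 4.25% and 7.71% of all compared genes. Their median log2 ratio was 0.14, against 0.07 for all compared genes, and spike-in scaling took it to -0.21, with all compared genes at -0.28. That scaling gave 0 pathway genes at least 1.5-fold higher and 11 lower, against 0.458% and 20.3% of all compared genes, and loess gave 2 higher and 3 lower, against 2.77% and 8.90%.

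Nearly every ligand gene was below the floor. This held for 14 of 15 ligand genes read, on both arrays, among them Ifnb1 (5.2 and 2.5), Ifng (1.4 and 0.9) and Tnf (12.3 and 1.3). The 1 compared gene was Il18, a cytokine that promotes interferon gamma production, at 92.7 and 90.2. Over the whole array 8091 of 12393 genes were bright enough to be compared.

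Receptor and JAK-STAT genes were measured in 13 of 15 cases, with a median log2 ratio of 0.21. Above the median of all compared genes lay 10 of these 13, and 48 of the 84 pathway genes. By list, this held for 0 of 1 ligand, 6 of 13 sensors and adaptors and 6 of 10 IRF and NF-kB genes. It also held for 7 of 14 type I effectors, 8 of 12 interferon gamma effectors, 4 of 6 ISG15 conjugation genes and 8 of 16 negative regulators. Ifnar1 and Ifnar2, the chains of the type I receptor, had log2 ratios of -0.02 and 0.07. Ifngr1, the ligand-binding chain of the interferon gamma receptor, had 0.53. Tyk2, a JAK kinase bound to the type I receptor, was the 1 gene at least 1.5-fold higher, with signals of 82.5 and 134.9 (1.64-fold). Stat6, which acts in interleukin 4 signalling, had 0.47 by its brighter probe set and 0.06 by the other. Irf9, the partner of STAT2, had signals of 85.6 and 88.2.

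Among sensors and adaptors 13 of 23 were compared. By their brightest probe sets they had a median of 0.01, with 0 at least 1.5-fold higher and 2 at least 1.5-fold lower. These were Tank, an adaptor of the kinase TBK1, with signals of 256.2 and 136.3 (1.88-fold lower), and Myd88, the adaptor of most Toll-like receptors, with 146.3 and 83.1 (1.76-fold lower). Mavs, which relays the signal of MDA5 at mitochondria, had 0.18, Tbk1 had -0.13, and Traf6, a ubiquitin ligase of Toll-like receptor signalling, had 0.57 by its brightest probe set. Dhx58, which encodes the MDA5 cofactor LGP2, was below the floor on both arrays at 23 and 1.8.

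The other IRF and NF-kB genes held 0 of 10 beyond 1.5-fold by their brightest probe sets, with a median of 0.16. Irf3, the factor that starts interferon beta transcription, had -0.42, and its 4 probe sets ran from -0.94 to -0.42. Irf8, a factor of myeloid cells, had -0.31, and Rel had 0.45. Ikbkg, the regulatory subunit of the IKK complex, had 0.48, and its 4 probe sets ran from 0.06 to 0.76.

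Most classical interferon targets were too dim to compare. In the list of type I effectors 14 of 35 genes read were compared, beside 8091 of all 12393 genes. Below the floor on both arrays were 18 of the 35, among them Ifit1 (8.5 and 1.4), Mx1 (7.5 and 5), Rsad2 (13 and 2.2), Oas2 (7.9 and 12.6) and Isg20 (7.7 and 1.2). The 14 compared genes had a median of 0.10. Trim34a (36.4 and 57.7, 1.59-fold) and Trim21, an antibody receptor with ubiquitin ligase activity (49.2 and 74, log2 ratio 0.59), were at least 1.5-fold higher by their brighter probe sets, and the other probe set of Trim21 had 0.15. Tdrd7, a chromatoid body protein of germ cells that is also induced by interferon, was 1.54-fold lower at 531.1 and 344.9. Oas1a and Oasl2, of the family that senses double-stranded RNA, had log2 ratios of -0.01 and 0.35.

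Among interferon gamma effectors and antigen presentation genes 12 of 28 were compared, with a median of 0.17. Gbp3, a guanylate-binding protein, was the 1 gene past 1.5-fold, at 28 and 48.2 (1.72-fold higher). Its relative Gbp2 had 0.30, and the immunity-related GTPase gene Igtp had 0.56. Wars, a tryptophanyl-tRNA synthetase gene, had -0.47 by its brightest probe set, and its 4 probe sets ran from -0.77 to -0.24. The ISG15 conjugation list held 0 of 6 compared genes past 1.5-fold, with Herc4 at -0.01, Usp18, which removes ISG15, at 0.13, Usp5 at -0.13, Usp14 at 0.18 and the ligase gene Arih1 at 0.18. The ISG15-activating enzyme gene Uba7 was below the floor on both arrays, at 5.5 and 16.6. Of 16 compared negative regulators 1 was past 1.5-fold, the X-linked deubiquitinase gene Otud5 at 1.55-fold higher by its brightest probe set. In that list Socs5 had 0.00, the SUMO ligase gene Pias2 had -0.43 and Trim27 had -0.52, and the median was 0.08.

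**Figure D3:**
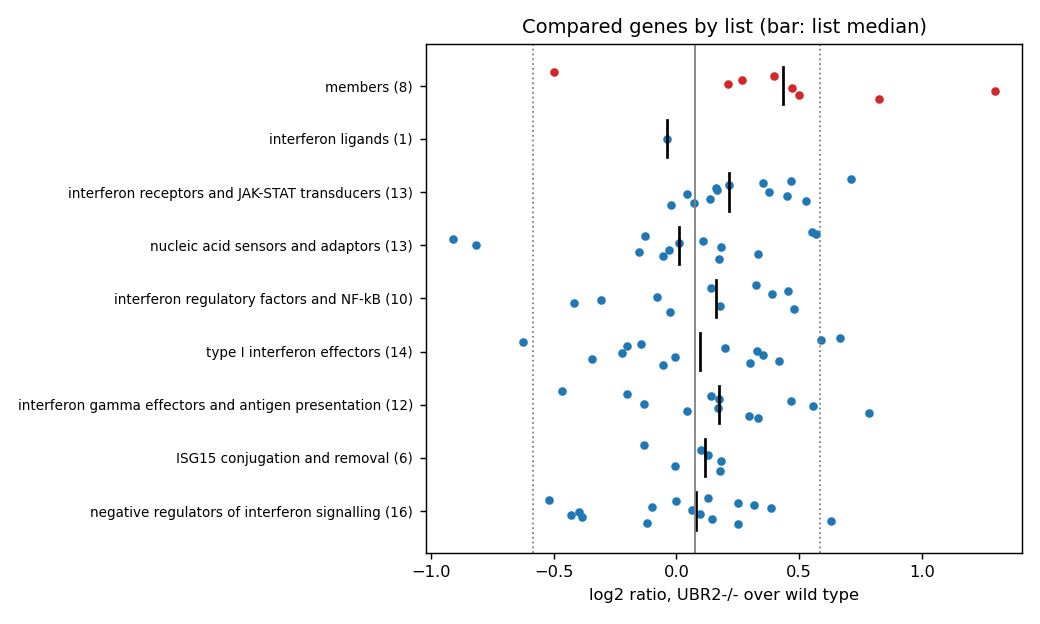
Log2 ratio of UBR2-/- over wild type for each compared gene of the set (red) and of the pathway lists (blue), with the number compared in parentheses, a bar at each list's median, a grey line at the median of all compared genes (0.07) and dotted lines at 1.5-fold. The pathway lists have medians from -0.04 to 0.21 on the deposited scale, and genes past 1.5-fold are few on either side.

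Neighbouring genes on chromosome 7 were read in the order of the RefSeq table, since Ifitm1, Ifitm2, Ifitm3 and Irf7 lie close together, with 13 protein-coding genes between Ifitm3 and Irf7. The stretch from 12 genes before Ifitm3 to Irf7 holds 27 genes, of which 13 were compared. All 4 genes of the set lay above 0 there, but they were chosen with their ratios in view. Of the 9 others 3 lay above 0 and 6 below, with a median of -0.09. Of all compared genes 58.9% lay above 0. Nothing is read from setting the 4 beside the 9. With spike-in scaling 3 of the 4 and 1 of the 9 lay above 0, and Ifitm3, Psmd13 and Rnh1 turned below it. Nearest to the Ifitm genes among those compared, Pgghg on 1 side had 0.38, and on the other Ptdss2, a phosphatidylserine synthase gene, had signals of 569.1 and 376.1 (1.51-fold lower). Lrrc56, which is needed to transport dynein arms in cilia and flagella, had 129.4 and 66.3 (1.95-fold lower), and Sirt3, a mitochondrial deacetylase gene, had 210.4 and 141.2 (1.49-fold lower).

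**Figure D4:**
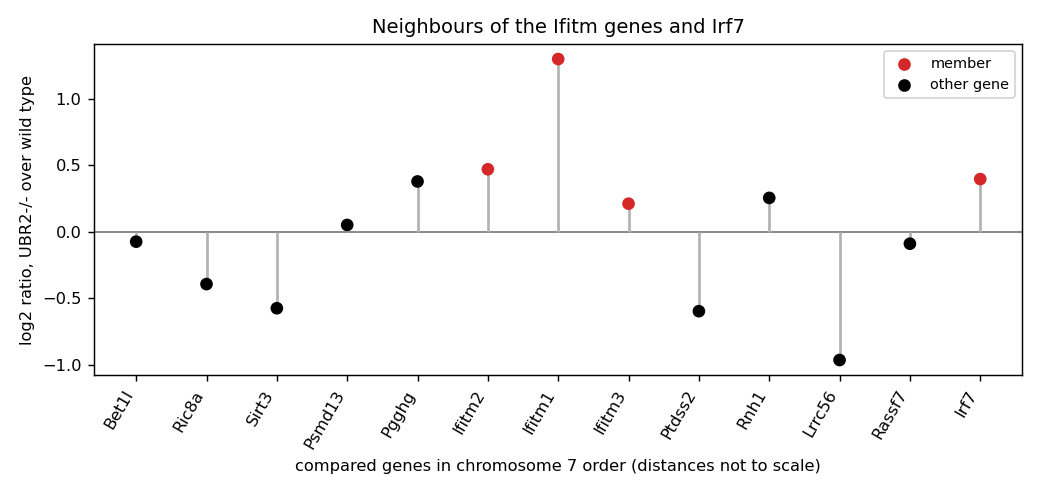
Log2 ratio of UBR2-/- over wild type for the 13 compared genes around the Ifitm genes and Irf7 in chromosome order (distances not to scale), with genes of the set in red and others in black. Ifitm1 at 1.30 stands between Ifitm2 at 0.47 and Ifitm3 at 0.21, and Lrrc56 at -0.96 is the lowest; the ratio of Irf7 is a lower bound, and Ifitm3 turns to -0.14 with spike-in scaling.

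The ISRE core was then looked up in the windows of all members, which the choice of the set did not use directly, although interferon target genes are known for it. All 9 genes were in the RefSeq promoter table, with 10 windows of 300 bases, and 6 genes held the core, including Isg15. Over all 32851 promoter windows, 3.44% held it, and so did 3.99% of all 27025 genes with a window. Among the 69 compared pathway genes with a window, the share was 17.4%. Bst2 is shown because it has overlapping cores, from 130 to 115 bases before the start, and Stat2 because it was lower and yet holds the core, here as the reverse complement. The Bst2 stretch is chr8:71537557-71537632 on the minus strand and the Stat2 stretch is chr10:128270248-128270315 on the plus strand.
Bst2: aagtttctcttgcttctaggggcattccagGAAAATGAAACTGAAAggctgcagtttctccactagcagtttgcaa
Stat2: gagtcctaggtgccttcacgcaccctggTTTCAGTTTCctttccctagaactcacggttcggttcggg
In Ifih1 the core lies after the start, at transcribed bases 33 to 42 (chr2:62646209-62646228, minus strand).
Ifih1 after the start: gaatcGAAACAGAAAccgat
Of the 8 genes read by the array, 5 held the core (Ifitm2, Ifitm3, Bst2, Ifih1 and Stat2) and 3 did not (Ifitm1, Irf1 and Irf7). The palindromic STAT element, TTC and GAA with any 3 bases between them, occurred in Ifitm3, Bst2 and Irf1. It occurred in 8.30% of all windows and in 9.55% of all genes with a window. In Ifitm3 it overlaps the second core and in Bst2 the first. A match is a run of letters and no measured binding site. Only exact letters within these windows were sought, so a gene without a match may still hold a variant or more distant element.

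Over all compared genes, those with the core had nearly the same median ratio as those without it. Of 6654 compared genes with a window, 242 held the core, with a median log2 ratio of 0.09 and 4.13% at least 1.5-fold higher. The other 6412 had a median of 0.07 and 4.16%. Among 69 compared pathway genes with a window, 12 held the core, and 3 of these were at least 1.5-fold higher (Trim21, Trim34a and Gbp3) while 2 were at least 1.5-fold lower (Myd88 and Tdrd7). Of the 57 without the core, 2 were at least 1.5-fold higher and 1 was lower, and the medians were 0.24 with and 0.14 without it. The difference between these small groups was not tested.

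Markers of the cell types of the testis differed between the arrays, and they are given beside these ratios. In bulk RNA, fewer cells of a type and less RNA per cell cannot be told apart. All 14 compared markers of pachytene and later spermatocytes were at least 1.5-fold lower, with a median of -2.99 and a summed signal of 12079.4 in wild type and 2293.2 in UBR2-/-. Markers of peritubular myoid cells (8 of 9 compared, median 0.51, sums of 2610.7 and 3750.9), Sertoli cells (15 of 15, 0.34, 13862.1 and 17705.4) and endothelial cells (9 of 11, 0.30, 310.8 and 398.2) had medians above that of all compared genes. So did spermatogonia (10 of 11, 0.29, 3464.5 and 3708.7), and Leydig cells had 0.12 (7 of 7, 1216.8 and 1256.1). Each of these lists but that of myoid cells had markers below 0. These were 2 of 15 for Sertoli cells, with Amh 2.34-fold lower at 59.7 and 25.5, and 3 of 9 for endothelial cells. For spermatogonia they were 3 of 10, with Id4 2.10-fold lower at 778.8 and 371.3, and for Leydig cells 3 of 7. Early meiotic prophase genes had -0.07 (10 of 10, 12819.6 and 12095.8), with 6 of 10 below 0 and Spo11 2.42-fold lower. Macrophage and leukocyte markers, of cells in which many of these genes are active, had a median of -0.12 (12 of 19 compared, sums of 1077.8 and 1000.5), with 9 of 12 below 0, Csf1r at -0.02 and Fcer1g at -0.43, while Ptprc was at least 1.54-fold higher. The T cell gene Cd3e was below the floor on both arrays, and 0 marker genes had a signal of 0. The part of these shifts in the ratios of the Ifitm and interferon genes was not tested.

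**Figure D5:**
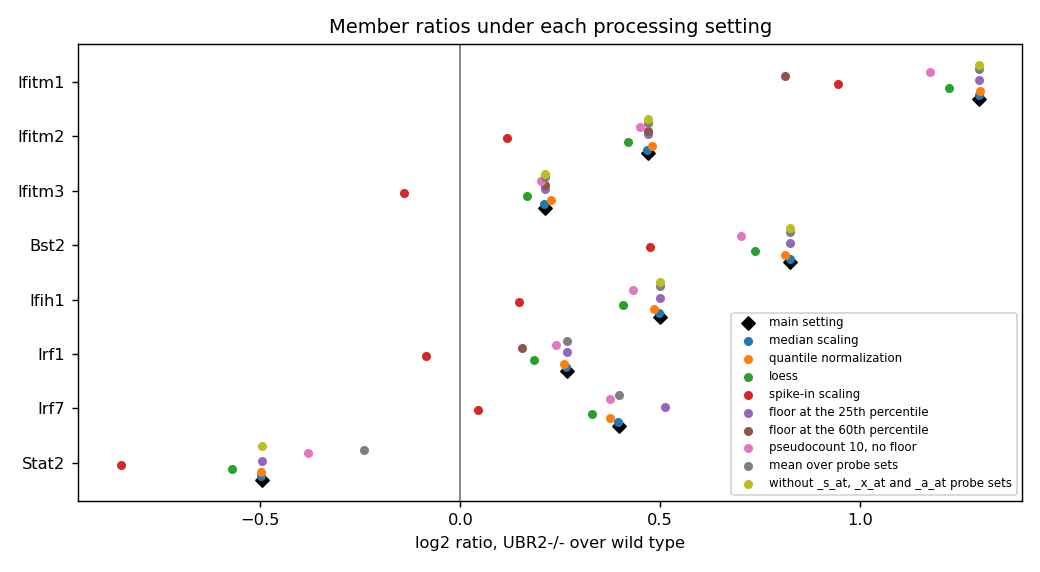
Log2 ratio of UBR2-/- over wild type for the 8 genes under the main setting (black diamonds) and 9 other ways of processing (coloured points), where a setting gives a value. Spike-in scaling shifts each gene to the left by 0.35 and takes Ifitm3 and Irf1 below 0, while Ifitm1 and Bst2 stay above 0 and Stat2 below 0 in every setting shown.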

How the data were processed

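The deposited values are probe set intensities on a linear scale, and per the submitters' processing notes MAS5 was used, which summarises the probes of a set as 1 signal, with no version or settings given. Both arrays had a 2% trimmed mean (2% cut from each end) of 150.04, and this scaling was kept. Gene names came from the platform annotation, updated through Entrez identifiers with the GRCm38.p6 gene table. Of 22626 probe sets without controls 20380 had 1 symbol, 691 had several and 1555 had none, and only the first were used. The brightest probe set stood for a gene with several. The number of arrays limits the precision, and no test across samples was possible. The genes, lists, floor and alternatives were chosen with earlier results of these data known. Genes named from a list are its first 2 compared genes, the 3 farthest from 0 (2 for cell markers) and, outside the marker lists, all past 1.5-fold; marker lists are otherwise given by counts. Further genes were named after their values were seen, as examples of dim genes, of differing probe sets, of the stretch on chromosome 7, of a pathway step or of a cell type. The probe set SD is 1.4826 times the median absolute difference between a pair of probe sets of 1 gene, divided by the square root of 2, over 3040 genes; dim is below a mean signal of 87.1 and bright from 247. The steps were tested on simulated data. Python 3.11.15 with pandas 2.3.3 and statsmodels 0.14.6 was used.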

Additional observations from a re-analysis of the deposited data

How the results depend on the processing

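For a gene's ratio, a shift under its probe set SD was taken as no move, and for a count a change within 1.5 times. Of 66 ratios of the 8 genes under alternatives, 57 did not move and 9 did. Spike-in scaling moved all 8, giving 0.95 for Ifitm1, 0.47 for Bst2 and -0.85 for Stat2; the median of the 8 became 0.080, with 1 at least 1.5-fold higher and 1 lower, and pathway genes had a median of -0.21, with 0 higher and 11 lower. Under it 0.458% of all compared genes were at least 1.5-fold higher and 20.3% lower. Relative to the median of all compared genes, 7 of the 8 stayed above and Stat2 below under each setting that gives a value. A floor at the 60th percentile moved Ifitm1 to a lower bound of 0.81, since its wild type signal lay under that floor. It kept 4 of the 8 genes with 1 at least 1.5-fold higher, and left 2 of 52 pathway genes higher, against 2.19% of all compared genes. A floor at the 25th percentile compared 123 pathway genes, 15 higher and 5 lower, against 7.04% and 8.90% of all compared genes. Loess and the mean over probe sets each gave 2 of 84 pathway genes higher, against 2.77% and 3.04% of all compared genes. A pseudocount of 10 gave 3 of 84, against 2.99%. Probe sets named _s_at, _x_at or _a_at may bind more than 1 transcript, and Irf1 and Irf7 have none without them. Dropping these probe sets gave 2 of 65 pathway genes higher, against 4.44% of all compared genes. At 2-fold 1 of the 8 was higher, with 0 pathway genes higher and 0 lower by their brightest probe sets. At 0.32 on the log2 scale 5 of the 8 were higher and 1 lower, with 24 and 10 pathway genes; of all compared genes 20.4% and 15.5% were. Median scaling and quantile normalization moved none of these. No paired analysis was possible because each genotype has 1 array.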
